A study of Caenorhabditis elegans with 12 samples.

Results

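The comparison set oocyte -1, the most proximal oocyte of the adult Caenorhabditis elegans gonad, against oocyte -3, which lies 2 places behind it in the same file of cells. It took the 4 oocyte -1 and 4 oocyte -3 libraries of the 12 in the series, and the 8070 of 46903 genes in the count table that passed a filter on low counts in these 8 libraries. Each library is a single oocyte, per the title of the series. Per the labels, all 8 oocytes came from wild-type adults with no treatment, and the groups differ in the labelled position alone. The labels name neither the animals nor the strain, so it is not known which oocytes shared an animal. The 4 oocyte -5 libraries were used only to give another level beside some values.

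Oocytes of this worm grow in single file along the gonad arm while they are arrested in late prophase of meiosis I. The oocyte nearest the spermatheca resumes meiosis in response to a signal from sperm, breaks down its nuclear envelope and is ovulated, and the oocyte behind it takes its place. Growing oocytes are wrapped by the gonadal sheath, take up yolk made in the intestine and stock mRNA for the embryo. Transcription is known to be shut down in the most proximal oocytes, where RNA-binding proteins govern which maternal mRNAs are kept, translated or removed.

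Because a single cell is not a replicate of a condition and no animal is named, each position was treated as 1 sample and no difference was tested. A gene's level at each position pools the 4 oocytes, as their added counts divided by their added scaled library sizes (CPM), with an exact Poisson interval at 95% that covers counting error only. Ratios are log2 ratios of the oocyte -1 level over the oocyte -3 level, so a positive value means higher in oocyte -1. "Past 2-fold" means a log2 ratio of at least 1 or at most -1. Oocytes "did not overlap" where all 4 values of one position lay on the same side of all 4 values of the other. A library of 1 oocyte cannot tell fewer transcripts in the cell from a smaller share of its polyadenylated RNA.

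The oocyte label was checked against a list of 12 genes taken for oocyte identity, and all 12 were measured at both positions. The translational regulator gene oma-1 had 1031, 957, 1015 and 816 CPM in the oocyte -1 libraries and 667, 995, 772 and 912 CPM in those of oocyte -3. The levels of its partner gene oma-2 were 1421 and 1376 CPM, of the eggshell gene cbd-1 4337 and 3813 CPM and of the Pumilio-family gene puf-5 1051 and 1277 CPM, with oocyte -1 given before oocyte -3 in each pair. The 12 genes had a median log2 ratio of 0.09, with 7 higher and 5 lower, and none past 2-fold. In the 2 oocyte -3 libraries other than replicates 1 and 3 the median was -0.19. The list's summed level was 15374, 15271, 20241 and 12919 CPM in the oocyte -1 libraries. It was 14541, 23807, 8273 and 15057 CPM in those of oocyte -3, where replicate 3 was the lowest of all.

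Library totals ran from 8358019 to 20446599 counts. Replicates 1 and 3 of oocyte -3 stood apart from the other 6 libraries. On principal components of log2 values, which held 31.1% and 23.7% of the variance, replicate 1 lay at 85.2 on the leading component and replicate 3 at 77.1 on the next, where no other library passed 0 on either. At 8358019 counts each they had 8448 and 8045 genes detected, against 9240 to 9665 in the oocyte -1 libraries and 9416 and 9035 in replicates 2 and 4 of oocyte -3. The median SD of a gene over the 4 oocytes was 0.273 (log2) at oocyte -1 and 0.421 at oocyte -3, and 0.203 between replicates 2 and 4 of oocyte -3. Results that rest on these oocytes are given with and without them.

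**Figure D1:**
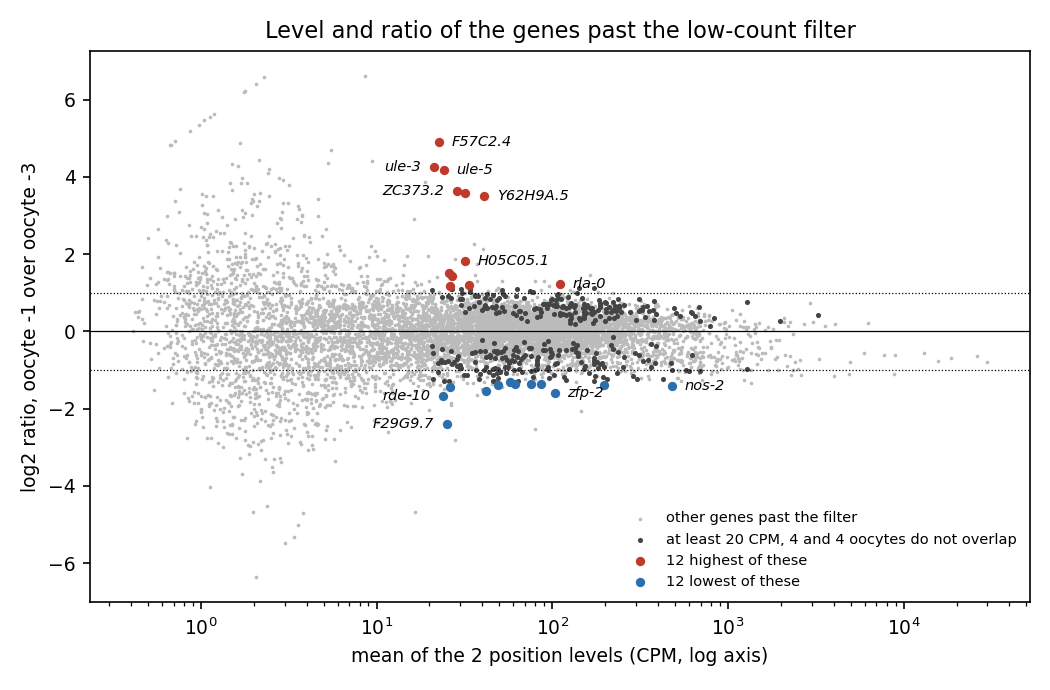
Log2 ratio of oocyte -1 over oocyte -3 (vertical axis) against the mean of the 2 position levels in CPM (log axis) for the 8070 genes past the filter, with dotted lines at 2-fold. Dark points are genes with oocytes apart and a mean of at least 20 CPM, and coloured points are the 12 highest and 12 lowest of these. Low genes scatter widely, and the diagonal row of points at the upper left holds genes set to 3 counts in oocyte -3.

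Most genes had like levels at the 2 positions. The median log2 ratio of all 8070 genes was 0.01, and the middle of the distribution ran from -0.42 to 0.35 between its quartiles. Past 2-fold were 478 genes that were higher in oocyte -1 (5.92%) and 639 that were lower (7.92%). These were mostly genes of few counts: in 5 equal groups of genes by level, 42.7% of the lowest group lay past 2-fold, against 3.35% of the highest. Among the 5182 genes of at least 20 CPM, 48 were past 2-fold higher (0.926%) and 152 past 2-fold lower (2.93%).

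The balance of higher and lower calls was not stable. Raw library totals gave 669 higher and 442 lower genes and moved the median of all genes to 0.21, and weighting each oocyte the same gave 367 and 281. Without oocyte -3 replicates 1 and 3 there were 622 higher and 474 lower. DESeq2 size factors gave 465 and 664, close to the split with TMM factors. The direction of the balance between the positions therefore cannot be read from these counts.

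Single oocytes of the positions lay apart for few genes. The oocyte -1 values were all above the oocyte -3 values for 277 genes (3.43%) and all below them for 257 (3.18%), together 6.62%. Past 2-fold as well were 105 genes higher (1.3%) and 120 lower (1.49%). Fewer oocytes overlap less readily, and the count of genes above was 491 without oocyte -1 replicate 2, 420 without its replicate 3, and 594, 443 and 493 without oocyte -3 replicates 2, 3 and 4. The count below was 518 without oocyte -1 replicate 2, and 567, 440 and 398 without oocyte -3 replicates 2, 3 and 4. Of genes apart and past 2-fold there were 210 higher without oocyte -3 replicate 2 and 200 without its replicate 4. There were 267 lower without oocyte -1 replicate 2, 260 without oocyte -3 replicate 2 and 195 without its replicate 3, against the 120 with all 8. With a mean of at least 20 CPM, 186 genes lay above (3.59%) and 177 below (3.42%), of which 24 (0.463%) and 54 (1.04%) were past 2-fold.

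The ratio was higher in longer genes. In 5 equal groups of genes from shortest to longest, the median log2 ratio was -0.26, -0.14, -0.02, 0.11 and 0.26. The shortest group spanned 19 to 838 exonic bases and the longest 2525 to 56341. Past 2-fold, 7.18% of the shortest group were higher and 12.1% lower, against 6.13% higher and 2.73% lower in the longest. Without oocyte -3 replicates 1 and 3 the medians were 0.02, -0.04, -0.02, 0.02 and 0.10, so most of the slope was in those oocytes. Replicate 1 of oocyte -3 deviated from the mean of the 8 oocytes by 0.44 (log2) in the shortest group and by -0.50 in the longest, and replicate 3 by 0.14 and -0.20. The part of RNA quality or of the 3' end chemistry in this slope was not tested. Genes of at least 20 CPM whose oocytes lay above had a median exonic length of 2359 bases, those below 1095 and all genes of that level 1561.

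**Figure D2:**
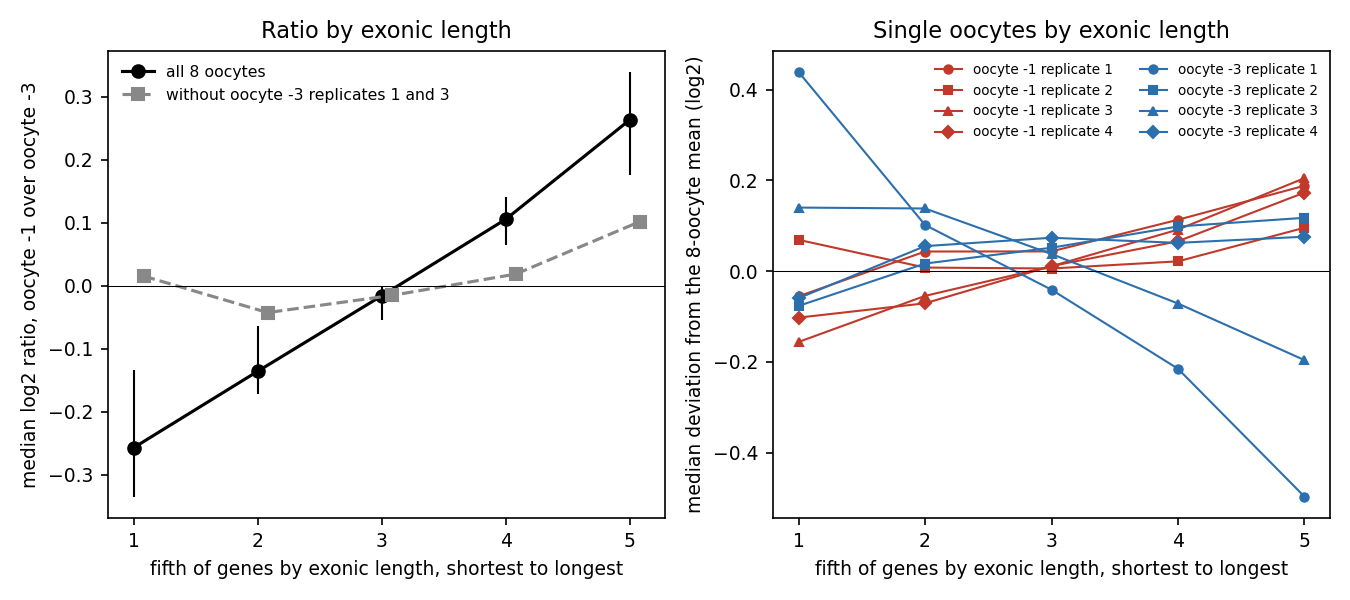
Left, the median log2 ratio of oocyte -1 over oocyte -3 in 5 equal groups of genes by exonic length, with bars for the range when 1 oocyte at a time was left out; the slope from -0.26 to 0.26 flattens without oocyte -3 replicates 1 and 3. Right, the median deviation of each oocyte from the mean of the 8 (log2), with oocyte -1 in red and oocyte -3 in blue; replicate 1 of oocyte -3 runs from 0.44 to -0.50.

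Nuclear chromosomes differed little in their medians, while the 16 measured genes of the mitochondrial genome had a median log2 ratio of -0.66. The 923 genes on chromosome X had a median log2 ratio of 0.10, against 0.01 for the 7131 autosomal genes, and 0.05 without oocyte -3 replicates 1 and 3. On X 9.86% of genes were past 2-fold higher and 8.45% lower, against 5.43% and 7.82% on the autosomes. Genes that lay apart were uneven on X: 39 lay above and 10 below, 4.23% and 1.08% of its genes. Of the genes of at least 20 CPM, 23 of the 186 above and 1 of the 177 below were on X, beside 419 of all 5182. The X chromosome is known to be silenced early in the worm's germ line and transcribed later in oogenesis. X-linked genes that passed the filter had a median exonic length of 1694 bases, longer than the medians of 1376 to 1493 on the autosomes. The ratio moved with length as given above, and the part of length or of X transcription in the X counts was not tested. Genes apart on X were counted with all the oocytes only, not without oocyte -3 replicates 1 and 3.

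The highest ratios belonged to a small set of genes that were nearly absent in oocyte -3. Among genes whose oocytes did not overlap and whose mean was at least 20 CPM, the 12 highest were led by F57C2.4, ule-3, ule-5, ZC373.2, ZK813.3 and Y62H9A.5, at log2 ratios from 3.51 to 4.90. After them came a gap to H05C05.1 at 1.82. The genes ule-3 and ule-5 belong to the uterine lumen expressed class, named for proteins found in the uterus, and the other 4 have no given name. All 6 are protein-coding, short and free of exons shared with other genes, and 4 lie on chromosome X.

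F57C2.4 (WBGene00010196; II, 14525312 to 14526031, 324 exonic bases) had 46.6, 59.4, 17.9 and 44.4 CPM in the oocyte -1 libraries and 5.22, 0.0838, 0 and 0.564 CPM in those of oocyte -3. Every oocyte -1 held more than 3 times the highest oocyte -3, and replicate 1 held most of the oocyte -3 counts. The levels were 44.0 CPM (interval 42.3 to 45.7) and 1.47 CPM (1.19 to 1.80), a log2 ratio of 4.90, or 7.45 without oocyte -3 replicate 1. Its level in oocyte -5 was 2.41 CPM.

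ule-3 (V, 10793793 to 10794924) had 58.0, 16.5, 23.98 and 41.9 CPM in the oocyte -1 libraries and 6.76, 0, 0.186 and 1.28 CPM in those of oocyte -3. ule-5 (X, 11883127 to 11884043) had 54.8, 42.4, 19.7 and 50.3 CPM in the oocyte -1 libraries and 9.02, 0.419, 0.681 and 0.256 CPM in those of oocyte -3. In both genes replicate 1 was again the highest of the oocyte -3 libraries, and without it the log2 ratios of 4.25 and 4.17 became 6.09 and 6.70. Y62H9A.5 (X, 11882144 to 11882917) had 52.1, 66.9, 31.2 and 123.6 CPM in the oocyte -1 libraries and 17.5, 1.68, 0.247 and 6.20 CPM in those of oocyte -3, a log2 ratio of 3.51, or 4.63 without oocyte -3 replicate 1. ZC373.2 (X, 10057925 to 10058437) ranged from 26.7 to 64.02 CPM among the oocyte -1 libraries and from 0 to 13.9 CPM among those of oocyte -3, a log2 ratio of 3.64, or 5.57 without oocyte -3 replicate 1. ZK813.3 (X, 3441839 to 3442458) ranged from 22.5 to 93.6 CPM and from 0.0838 to 19.3 CPM, in the same order, a log2 ratio of 3.58, or 7.99 without oocyte -3 replicate 1. In all 6 genes oocyte -3 replicate 1 was the highest oocyte -3, and without replicates 1 and 3 the log2 ratios were between 4.07 and 7.68.

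Several of these genes have neighbours that were also higher in oocyte -1. Within 5000 bases of the 12 highest genes lay 25 other genes past the filter, with a median log2 ratio of 0.48. Of these, 7 were past 2-fold higher and none past 2-fold lower. Around the 12 lowest genes lay 34, with a median of -0.21, of which 1 was past 2-fold higher and 3 lower. The shares of all genes past 2-fold were 5.92% higher and 7.92% lower. Of the 7, ZK813.1, ZK813.2 and ZK813.7 lie by ZK813.3 and Y62H9A.4 by ule-5, so the 7 are not separate places. All neighbours were examined after the values of the 12 genes were seen. Y62H9A.5 ends 210 bases from ule-5, and Y62H9A.4 on its other side had 1.36, 8.71, 5.38 and 5.26 CPM in the oocyte -1 libraries and 0, 0, 0 and 0.871 CPM in those of oocyte -3. Its log2 ratio was 4.09, or 6.06 without oocyte -3 replicate 4.

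D1054.10, 963 bases from ule-3, had 38.6, 35.3, 27.6 and 35.3 CPM in the oocyte -1 libraries and 8.18, 0.335, 0 and 1.13 CPM in those of oocyte -3, a log2 ratio of 3.86, or 6.01 without oocyte -3 replicate 1. Next to ZK813.3, ZK813.1 had a level of 17.9 CPM in oocyte -1 and 0.839 CPM in oocyte -3, with a log2 ratio of 4.42, or 3.16 without oocyte -1 replicate 4. ZK813.2 stood at 4.51 and 0.396 CPM, with a log2 ratio of 3.51, or 2.16 without oocyte -1 replicate 4. In oocyte -5 ZK813.2 stood at 5.43 CPM, above its oocyte -1 level. D1054.10, ZK813.1 and ZK813.7 stood at 2.15, 1.98 and 2.77 CPM in oocyte -5, below their oocyte -1 levels. ZK813.7 ranged from 12.2 to 49.8 CPM among the oocyte -1 libraries and had 32.6, 0, 0 and 0.0512 CPM in those of oocyte -3, so its oocytes overlapped through replicate 1 alone, and its log2 ratio was 1.95, or 8.94 without that oocyte. Genes next to F57C2.4 did not share its ratio: pot-2 and F57C2.5, 200 and 182 bases away, stood at 0.20 and 0.26. Whether members of these clusters share reads through similar sequence was not tested.

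The remaining 6 of the 12 highest had smaller ratios and were present at both positions. H05C05.1 (III, 2947091 to 2960574) had 51.4, 45.8, 48.2 and 50.8 CPM in the oocyte -1 libraries and 0.0644, 13.7, 11.7 and 27.3 CPM in those of oocyte -3, a log2 ratio of 1.82, or 2.62 without oocyte -3 replicate 4, 1.42 without replicate 1 and 1.17 without replicates 1 and 3. The oocyte -1 libraries were tight, and replicate 1 of oocyte -3 was near 0. xrn-1 (II, 14068907 to 14089119), which encodes the 5' to 3' exoribonuclease of mRNA decay, had 30.6, 48.7, 55.1 and 36.2 CPM in the oocyte -1 libraries and 0.708, 18.8, 21.2 and 17.5 CPM in those of oocyte -3. Its log2 ratio was 1.43, and 1.13 without oocyte -3 replicates 1 and 3. rla-0 (I, 10567894 to 10569019), which encodes the stalk protein P0 of the large ribosomal subunit, had 204, 205, 109 and 98.9 CPM in the oocyte -1 libraries and 75.9, 65.9, 48.1 and 73.3 CPM in those of oocyte -3, a log2 ratio of 1.23, and 1.14 without replicates 1 and 3. C18C4.7 stood at 1.505, the homeobox gene ceh-91 at 1.19 and gbf-1, which encodes an exchange factor for ARF GTPases at the Golgi, at 1.1799. Without replicates 1 and 3 of oocyte -3, 10 of the 12 stayed past 2-fold, and ceh-91 and gbf-1 stood at 0.98 and 0.64.

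**Figure D3:**
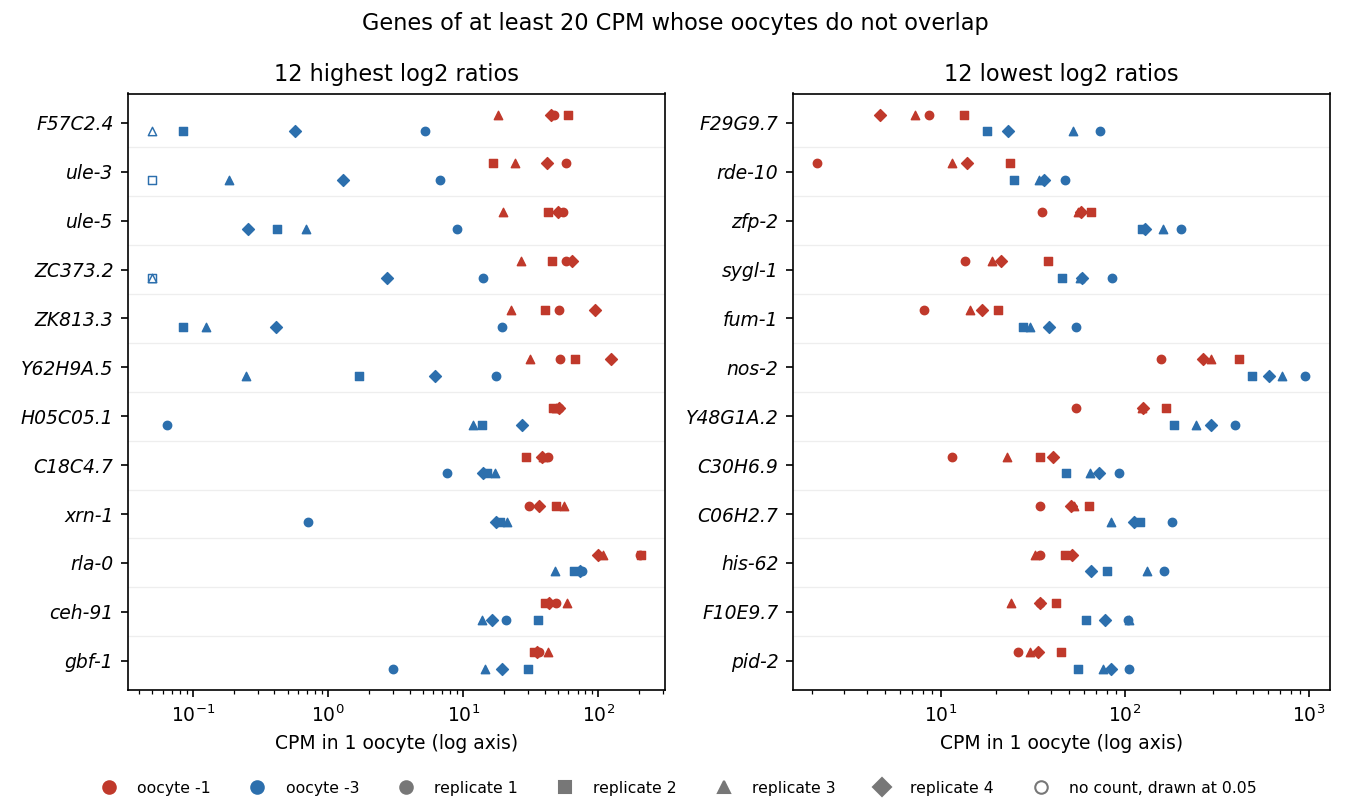
CPM in each oocyte (log axis) for the 12 highest and the 12 lowest log2 ratios, with oocyte -1 in red above oocyte -3 in blue. The 6 genes at the top left are near 0 in most oocyte -3 libraries, with replicate 1 (circles) highest. The 12 lowest genes have counts in every oocyte, and their position levels differ by at most 5.28-fold, though single oocytes differ by more.

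The 12 lowest genes were present at both positions and had smaller ratios, from -2.40 to -1.32. The lowest was the pseudogene F29G9.7 (WBGene00017933; V, 6035397 to 6036683), with 8.63, 13.3, 7.28 and 4.67 CPM in the oocyte -1 libraries and 73.6, 17.8, 52.6 and 23.2 CPM in those of oocyte -3. Replicates 1 and 3 were the highest of its oocyte -3 values, and without them its ratio was -1.41. rde-10 (I, 3547071 to 3552005), which acts in RNA interference, had 2.13, 23.8, 11.5 and 13.9 CPM in the oocyte -1 libraries and 47.3, 24.9, 34.1 and 36.4 CPM in those of oocyte -3, a log2 ratio of -1.68. The positions came close in this gene, since the highest oocyte -1 lay just under the lowest oocyte -3.

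zfp-2 (II, 9557646 to 9559516), a zinc finger gene, had 35.6, 65.6, 55.7 and 58.1 CPM in the oocyte -1 libraries and 203, 125, 162 and 130 CPM in those of oocyte -3, a log2 ratio of -1.59 that was -1.31 without replicates 1 and 3. sygl-1 (I, 12483809 to 12486235), a target of Notch signalling that maintains germline stem cells, had 13.5, 38.2, 19.1 and 21.2 CPM in the oocyte -1 libraries and 85.2, 45.8, 57.4 and 58.3 CPM in those of oocyte -3, a log2 ratio of -1.54. The level of zfp-2 in oocyte -5 was 56.7 CPM and that of sygl-1 21.8 CPM, near the oocyte -1 levels of 51.4 and 21.4 CPM. nos-2 (II, 7065618 to 7067051), a Nanos-family gene whose maternal mRNA serves the embryonic germ cells, had 157, 416, 296 and 267 CPM in the oocyte -1 libraries and 958, 493, 715 and 607 CPM in those of oocyte -3. Its log2 ratio was -1.42, and -1.11 without replicates 1 and 3, and 12.4% of its exonic bases overlap another gene, so its count is uncertain.

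The other 7 were the fumarase gene fum-1 at -1.44, Y48G1A.2 and C30H6.9 at -1.39, C06H2.7 at -1.37, the core histone gene his-62 and F10E9.7 at -1.36, and the piRNA pathway gene pid-2 at -1.32. Exons overlapping other genes made up 19.3% of F10E9.7 and 9.13% of C30H6.9. The 12 lowest genes shared a pattern over the oocytes: replicate 1 of oocyte -3 was the highest value in 11 of them and replicate 1 of oocyte -1 the lowest of the 8 in 9. In 11 of the 12 the oocyte -5 level lay nearer to oocyte -1 than to oocyte -3. The same held for 144 of the 177 genes of at least 20 CPM that lay below. It also held for 120 of the 186 genes of that level that lay above and for 3105 of all 5182. The pattern was thus commoner among genes that lay below, but not particular to the 12. The 12 were chosen in part by their oocyte -3 levels. Without oocyte -3 replicates 1 and 3, 11 of the 12 stayed past 2-fold, and his-62 stood at -0.74. None of the 12 was on chromosome X.

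Genes with oocytes apart and a mean of at least 20 CPM were also ranked by the difference in CPM. Genes whose oocytes overlapped were left out of this ranking, and some of them, such as clec-87 and eef-1G described further on, differed by more. Within it the largest gain was in spn-4, an RNA-binding gene needed in the early embryo, with 4361, 3424, 3493 and 3431 CPM in the oocyte -1 libraries and 2394, 3112, 2621 and 3063 CPM in those of oocyte -3, a log2 ratio of 0.43. After it came the protein disulfide isomerase gene pdi-3 (0.76), the Y-box protein gene cey-2 (0.26), the fibrillarin gene fib-1 (0.62), the chromatin remodelling ATPase gene swsn-4 (0.50) and the actin gene act-3 (0.48). Near-identical actin genes leave act-3 uncertain. In fib-1, which encodes an RNA methyltransferase of the nucleolus, the values were 939, 676, 816 and 813 CPM in the oocyte -1 libraries and 566, 552, 535 and 515 CPM in those of oocyte -3, and the ratio was 0.65 without replicates 1 and 3. The ratios of pdi-3 and swsn-4 were 0.29 and 0.20 without those oocytes.

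In the same ranking the largest losses were in Y4C6A.3 at 860 CPM in oocyte -1 and 1693 CPM in oocyte -3, rsa-1 at 458 and 930 CPM, nos-2, pir-1 at 394 and 803 CPM, F54D5.9 at 383 and 766 CPM, and C47G2.4 at 255 and 596 CPM. Their log2 ratios lay between -1.42 and -0.98. rsa-1 encodes a regulator of spindle assembly and pir-1 an RNA phosphatase of the small RNA pathway. In all 6 genes oocyte -1 replicate 1 was the lowest of the 8 oocytes and oocyte -3 replicate 1 the highest. Without oocyte -3 replicates 1 and 3 only nos-2 and C47G2.4 of the 6 stayed past 2-fold, and nos-2 stood at -1.11.

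Gene lists are described by their counts and medians beside those of all genes, of which 51.1% were higher and 48.9% lower. Of all genes, 5.92% were past 2-fold higher and 7.92% past 2-fold lower. The oocytes lay apart above for 3.43% and below for 3.18%. Genes that drive and time maturation differed little as groups. Of 28 maturation kinase and cyclin genes, 20 were higher and 8 lower, with 1 past 2-fold higher, none past 2-fold lower and a median log2 ratio of 0.15, or -0.01 without oocyte -3 replicates 1 and 3. The mitotic and meiotic kinase gene cdk-1 stood at 680 CPM in oocyte -1 and 606 CPM in oocyte -3, and cyb-1, a cyclin B gene, at 725 and 626 CPM. The Cdk1 partner gene cks-1 had 254, 262, 247 and 231 CPM in the oocyte -1 libraries and 351, 351, 477 and 339 CPM in those of oocyte -3, so its oocytes lay apart, with a log2 ratio of -0.62.

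Among 18 genes of the anaphase-promoting complex and separase, 9 were higher and 9 lower, with a median of -0.01, or -0.16 without replicates 1 and 3. The RING subunit gene apc-11 had 26.5, 38.0, 38.0 and 33.7 CPM in the oocyte -1 libraries and 128, 59.7, 79.8 and 59.5 CPM in those of oocyte -3, a log2 ratio of -1.32. Without replicates 1 and 3 it stood at -0.87, and its oocytes did not overlap. The securin gene ify-1 stood at -0.91 and the spindle checkpoint gene mdf-2 at -0.72, with overlapping oocytes. Cullin ligase genes had a median of 0.04, with 10 of 18 higher.

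Of 50 meiotic spindle and kinetochore genes 28 were higher and 22 lower, with a median of 0.05. The dynein heavy chain gene dhc-1 had 391, 396, 449 and 381 CPM in the oocyte -1 libraries and 87.4, 329, 118.8 and 351 CPM in those of oocyte -3, a log2 ratio of 0.84, or 1.27 without oocyte -3 replicate 4 and 0.21 without replicates 1 and 3. It is a long gene, and the lowest oocytes were the ones that stood apart. The gamma-tubulin gene tbg-1 had 27.1, 14.2, 17.9 and 20.6 CPM in the oocyte -1 libraries and 38.1, 40.8, 36.1 and 40.2 CPM in those of oocyte -3, a log2 ratio of -0.87, and -0.93 without replicates 1 and 3. The kinetochore gene kbp-1 stood at -1.24 with oocytes apart, and the acentrosomal spindle kinesin gene klp-18 at 0.89 with oocytes that overlapped.

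Synapsis and crossover genes, which act earlier in meiosis, had a median of 0.12, with 24 of 41 higher. The central region gene of the synaptonemal complex syp-2 had 206, 448, 367 and 340 CPM in the oocyte -1 libraries and 803, 485, 642 and 611 CPM in those of oocyte -3, a log2 ratio of -1.01, and -0.82 without replicates 1 and 3. syp-3 stood at -0.85, the double-strand break gene spo-11 at -0.81 and the crossover gene cosa-1 at -0.66. DNA replication genes had a median of 0.02, with 19 of 33 higher.

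Of 25 nuclear pore genes 22 were higher in oocyte -1, and the median was 0.28, or 0.17 with 17 higher without oocyte -3 replicates 1 and 3. The list's summed level was 5289, 5053, 5136 and 5405 CPM in the oocyte -1 libraries and 3859, 4931, 3689 and 5163 CPM in those of oocyte -3, so the low values were in the libraries that stood apart and the groups overlapped. npp-21 (0.78) and npp-8 (0.65) lay apart, npp-13 stood at 0.74, and npp-16 went the other way at -1.24. The median exonic length of the list was 2682 bases. Of 18 nuclear envelope genes 13 were higher, with a median of 0.17, or 0.02 without replicates 1 and 3. The SUN-domain gene unc-84 (0.71) and the LEM-domain nuclease gene lem-3 (0.47) had oocytes apart, and lem-3 stood at 0.46 without replicates 1 and 3. Polarity and cortex genes had a median of 0.14, with 22 of 31 higher, or -0.06 with 14 higher without replicates 1 and 3. The non-muscle myosin gene nmy-1 stood at 1.02, with no count in oocyte -3 replicate 1, and at 0.52 without replicates 1 and 3. The myosin light chain gene mlc-4 stood at -0.63 with oocytes apart.

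RNA-binding regulators of maternal mRNA, which include the proteins that hold and release translation in the oocyte, had 27 of 45 members higher and 18 lower, with a median of 0.09 and a mean of -0.01. None was past 2-fold higher and 2 were past 2-fold lower, nos-2 and fbf-2. The Pumilio-family gene fbf-2, a regulator of germline stem cells, stood at 25.02 CPM in oocyte -1 and 52.7 CPM in oocyte -3 (-1.08), or -0.83 without replicates 1 and 3. cpb-1, a CPEB-family gene known for its role in spermatogenesis, had 17.2, 17.7, 17.5 and 25.08 CPM in the oocyte -1 libraries and 28.1, 41.1, 44.5 and 36.9 CPM in those of oocyte -3, a log2 ratio of -0.91 that was -0.95 without replicates 1 and 3. puf-3, which shares near-identical sequence with puf-11 and is uncertain, stood at -0.76. The embryonic regulators mex-3 and pos-1 stood at 582 and 2437 CPM in oocyte -1 and at 460 and 2071 CPM in oocyte -3.

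P granule and small RNA genes had a median of 0.19, with 30 of 42 higher, or 0.06 with 23 higher without replicates 1 and 3. The Argonaute gene alg-1 (0.87), which acts with miRNAs, and the RNA-dependent RNA polymerase gene rrf-1 (0.84) had oocytes apart, while rde-10 was the lowest among members of at least 20 CPM. Without replicates 1 and 3 these stood at 0.56, 0.27 and -1.50. The Notch genes of germline stem cells had a median of 0.00, with 6 of 12 higher, and sygl-1 and fbf-2 past 2-fold lower.

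Genes of the eggshell and egg activation had a median of -0.12, with 12 of 28 higher, none past 2-fold higher and 3 past 2-fold lower, and -0.26 with 8 higher without replicates 1 and 3. The chondroitin proteoglycan gene cpg-3 had 1089, 4177, 2997 and 2778 CPM in the oocyte -1 libraries and 10270, 5161, 1039 and 5647 CPM in those of oocyte -3, a log2 ratio of -1.15. Replicates 1 and 3 of oocyte -3 were its highest and lowest values, and the groups overlapped. Both enzymes of hexosamine synthesis in this list, gfat-2 at 419 CPM in oocyte -1 and 1001 CPM in oocyte -3 and gna-2 at 564 and 1173 CPM, were past 2-fold lower, at -1.26 and -1.06, also with overlapping oocytes. gna-2 stood at -0.71 without replicates 1 and 3. The summed level of the list ranged from 15206 to 24816 CPM among the oocyte -1 libraries and from 10450 to 31259 CPM among those of oocyte -3.

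The yolk receptor gene rme-2 had 1018, 1447, 1269 and 1093 CPM in the oocyte -1 libraries and 3232, 2631, 482 and 1594 CPM in those of oocyte -3. Its log2 ratio was -0.72, or -0.78 without replicates 1 and 3, and replicate 3 of oocyte -3 was lower than any oocyte -1. The 20 yolk uptake and endocytosis genes had a median of 0.14, or 0.02 without replicates 1 and 3. C-type lectin genes had 9 of 240 members past the filter, with a median of -0.56. Among them clec-87 had 12530, 32480, 19940 and 26320 CPM in the oocyte -1 libraries and 53670, 28030, 26930 and 40260 CPM in those of oocyte -3, a log2 ratio of -0.79, or -0.51 without oocyte -1 replicate 1. clec-91 stood at -1.01 and clec-88 at -0.56, and the groups overlapped in all 3 genes. The germline gap junction genes inx-14, inx-21 and inx-22, which couple oocytes to the sheath, stood at -0.44, 0.24 and 0.47, and inx-22 at -0.18 without replicates 1 and 3.

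Of 81 genes of cytoplasmic ribosomal proteins 76 were higher in oocyte -1. The median log2 ratio was 0.61, and 9 were past 2-fold higher and none lower, beside 5.92% and 7.92% of all genes. Without oocyte -3 replicates 1 and 3 the median was 0.89 with 79 higher, and leaving out 1 oocyte at a time it ranged from 0.41 to 0.92. rpl-9 had 163, 241, 50.9 and 64.5 CPM in the oocyte -1 libraries and 90.3, 33.4, 47.95 and 34.95 CPM in those of oocyte -3, a log2 ratio of 1.31, or 1.90 without oocyte -3 replicates 1 and 3. rps-6 had 154, 227, 62.8 and 32.1 CPM and 74.5, 37.6, 44.98 and 30.4 CPM, in the same order, a log2 ratio of 1.29. The high values were in oocyte -1 replicates 1 and 2, and the groups overlapped in both genes. Of the 81, 3 had oocytes that lay apart, all above, and rla-0 was among them. That is near the share of all genes that lay above, 3.43%.

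The summed level of the ribosomal protein list did not follow its median. It was 21086, 30203, 15106 and 15957 CPM in the oocyte -1 libraries and 30865, 14631, 13313 and 17117 CPM in those of oocyte -3. The sum is led by a few abundant members such as rpl-12, at 6110 CPM in oocyte -1 and 9368 CPM in oocyte -3 with a log2 ratio of -0.62, or -0.31 without oocyte -3 replicate 1. The mean of the members' log2 values, centred over the 8 oocytes, was 0.70, 0.93, -0.13 and -0.35 in the oocyte -1 libraries and 0.49, -0.52, -0.64 and -0.47 in those of oocyte -3. By that score replicates 1 and 2 of oocyte -1 and replicate 1 of oocyte -3 were high, so oocytes of each position differed among themselves by as much as the positions did. The list's genes are short, at a median of 545 exonic bases. The shortest group of all genes had a median of -0.26, or 0.02 without oocyte -3 replicates 1 and 3. The part of length in the list's ratios was not tested.

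Other genes of protein synthesis did not share this. Mitochondrial ribosomal protein genes had a median of -0.13, with 27 of 70 higher, and 0.07 with 40 higher without replicates 1 and 3. Translation factor genes had a median of 0.11, with 28 of 42 higher. The elongation factor genes eef-1G and eef-2 stood at 3078 and 1294 CPM in oocyte -1 and at 6676 and 2577 CPM in oocyte -3, log2 ratios of -1.12 and -0.99, or -0.86 and -0.44 without replicates 1 and 3. The tRNA synthetase genes had a median of 0.14, with 20 of 32 higher. Proteasome genes had a median of 0.02, with 18 of 33 higher, while their lid subunit gene rpn-9 had 28.9, 49.1, 46.4 and 54.7 CPM in the oocyte -1 libraries and 77.6, 97.2, 81.5 and 90.8 CPM in those of oocyte -3, a log2 ratio of -0.98 that was -1.09 without replicates 1 and 3. In the CCT chaperonin, which folds actin and tubulin, 6 of 8 genes were higher with a median of 0.18, and cct-3 (0.85) and cct-8 (0.60) had oocytes apart and stood at 0.62 and 0.53 without replicates 1 and 3. Heat shock protein and DNAJ genes had a median of -0.01, with 20 of 41 higher.

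**Figure D4:**
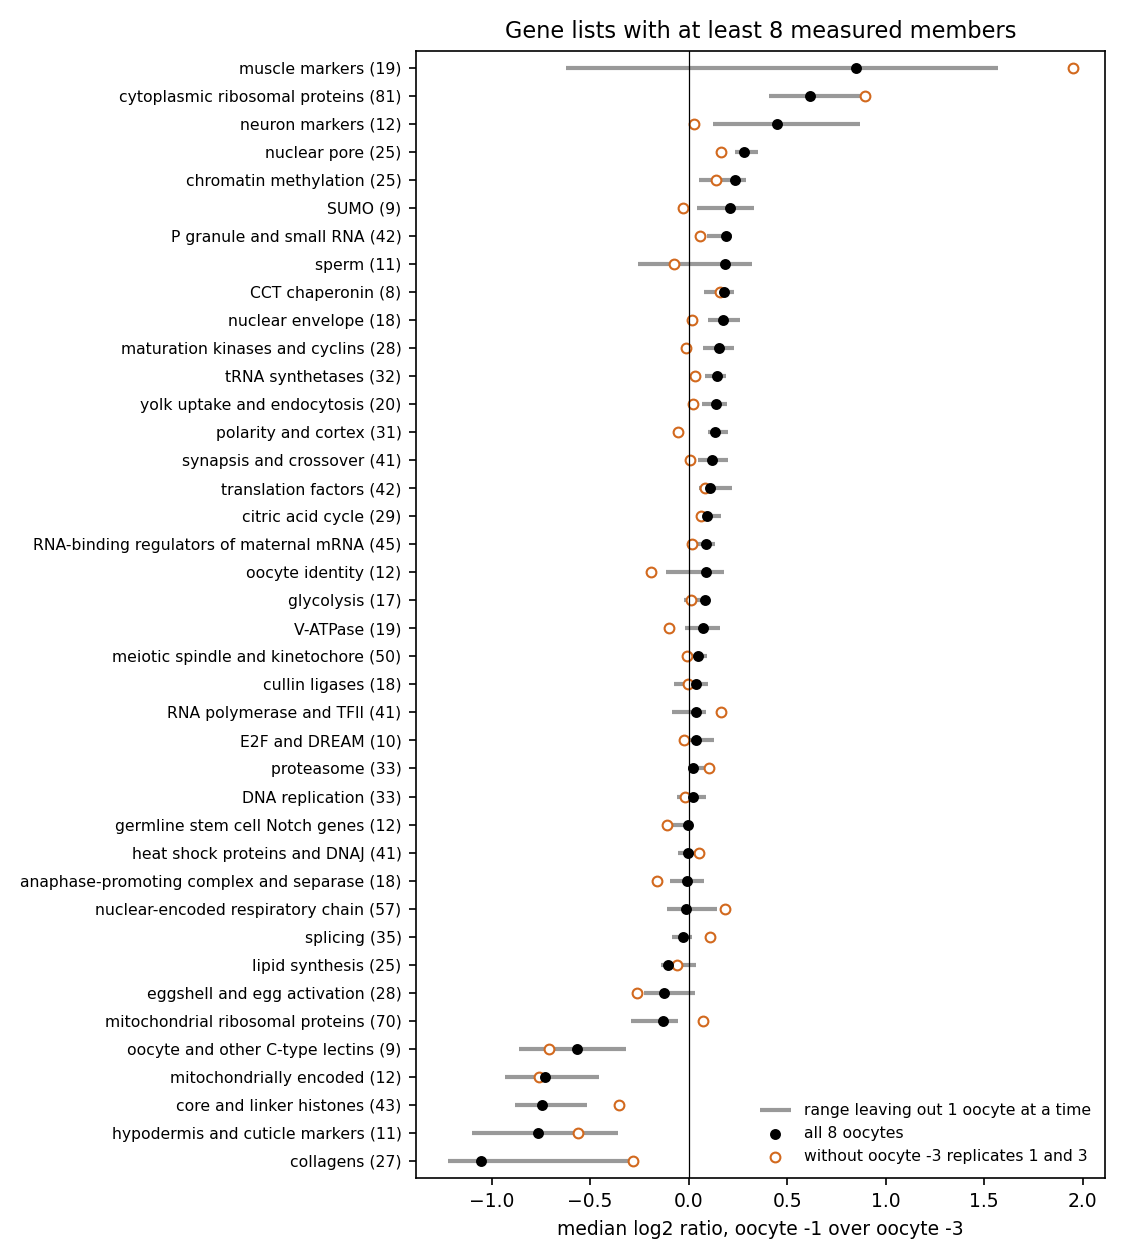
Median log2 ratio of oocyte -1 over oocyte -3 for the lists with at least 8 measured members (number in brackets), with grey bars for the range when 1 oocyte at a time was left out and open circles for the value without oocyte -3 replicates 1 and 3. Cytoplasmic ribosomal protein and nuclear pore genes lie above 0 and mitochondrially encoded genes and histones below it under each of these. Other lists also keep their side, such as chromatin methylation genes above 0 and collagens and C-type lectins below it. The muscle and mitochondrial ribosomal protein lists cross 0.

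Of 43 measured core and linker histone genes 40 were lower in oocyte -1. The median was -0.74, with 9 past 2-fold lower and none past 2-fold higher. The median was -0.35 without oocyte -3 replicates 1 and 3, when 10 of 43 were higher. Another 37 of the 80 histone genes in the table did not pass the filter, and 28 had no count in the 8 libraries. The linker histone gene hil-4 had 885, 2707, 1693 and 1561 CPM in the oocyte -1 libraries and 4434, 1976, 3262 and 2666 CPM in those of oocyte -3, a log2 ratio of -1.00, or -0.63 without replicates 1 and 3. Replicates 1 and 3 were its highest oocyte -3 values, and oocyte -1 replicate 2 lay among the oocyte -3 values. his-48 stood at -1.07 and his-37 at -0.99, or -0.38 and -0.88 without those oocytes, and 5 histone genes lay wholly below. The libraries hold polyadenylated transcripts, most core histone mRNAs are known to end without a poly(A) tail, and near-identical copies leave single histone genes uncertain.

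Chromatin methylation genes had a median of 0.23, with 17 of 25 higher, or 0.14 with 18 higher without replicates 1 and 3. The demethylase genes lsd-1 and jmjd-1.2 stood at 0.66 and 0.64 and at 0.58 each without replicates 1 and 3, and the oocytes of jmjd-1.2 lay apart. Splicing, RNA polymerase, and E2F and DREAM genes had medians of -0.03, 0.04 and 0.04. The SUMO gene smo-1 stood at -0.80 with oocytes apart and at -0.37 without replicates 1 and 3. The SUMO protease gene ulp-5 stood at 53.0 CPM in oocyte -1 and 21.6 CPM in oocyte -3 (1.296), or 0.67 without replicates 1 and 3, and replicate 1 of oocyte -3 had 0.129 CPM.

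All 12 protein-coding genes of the mitochondrial genome were lower in oocyte -1, with a median log2 ratio of -0.73, and -0.76 without oocyte -3 replicates 1 and 3. COX2, a subunit gene of cytochrome c oxidase, had 736, 923, 713 and 630 CPM in the oocyte -1 libraries and 2761, 1741, 829 and 1702 CPM in those of oocyte -3, a log2 ratio of -1.25. MTCE.16 had 110, 270, 204 and 193 CPM in the oocyte -1 libraries and 575, 391, 292 and 432 CPM in those of oocyte -3, a log2 ratio of -1.23, and was the only one of the 12 whose oocytes lay apart. In COX2 the highest oocyte -1 passed the lowest oocyte -3, which was replicate 3. ND1 and ATP6 stood at -1.22 and -0.91. The summed level was 7683, 10377, 7631 and 6589 CPM in the oocyte -1 libraries and 21004, 11988, 8558 and 12671 CPM in those of oocyte -3, and without oocyte -3 replicate 1 the median was -0.45.

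Respiratory chain genes of the nucleus had 27 of 57 members higher and a median of -0.02, or 0.18 with 40 higher without replicates 1 and 3. atp-1, which encodes a subunit of the ATP synthase, stood at 1678 CPM in oocyte -1 and 3303 CPM in oocyte -3, a log2 ratio of -0.98. In metabolism, citric acid cycle genes had a median of 0.10 with 18 of 29 higher, glycolysis genes 0.08 with 9 of 17 higher and lipid synthesis genes -0.10 with 12 of 25 higher. The fumarase gene fum-1 had 8.10, 20.6, 14.3 and 16.8 CPM in the oocyte -1 libraries and 54.1, 27.99, 30.7 and 38.8 CPM in those of oocyte -3, the lowest of its list among members of at least 20 CPM, and stood at -1.29 without replicates 1 and 3. The aldolase gene aldo-2, the lipid droplet gene ldp-1 and the ATP citrate lyase gene acly-2 stood at -1.00, -1.00 and -0.86, with overlapping oocytes. V-ATPase genes had a median of 0.07, with 11 of 19 higher. Of 13 tubulin genes 5 passed the filter, with a median of -0.11, or 0.08 without replicates 1 and 3.

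Markers of other cells that touch or feed the oocyte were examined for carried-over RNA. Of the uterine lumen class, 4 of 5 genes were measured, all higher in oocyte -1, with a median of 2.93, or 3.88 without oocyte -3 replicate 1. Its summed level was 121.6, 67.2, 49.5 and 103 CPM in the oocyte -1 libraries and 18.9, 3.52, 2.17 and 6.41 CPM in those of oocyte -3, so every oocyte -1 was above every oocyte -3. Most of that sum was ule-3 and ule-5, at 40.1 and 45.9 CPM in oocyte -1 and 2.11 and 2.55 CPM in oocyte -3, which are already among the 12 highest ratios, so the sum adds no separate evidence. In oocyte -5 the class summed to 24.4 CPM and ranged from 2.97 to 73.6 CPM. The highest oocyte -5, replicate 1, thus lay within the range of oocyte -1. ule-4 stood at 7.82 CPM in oocyte -1 and 2.44 CPM in oocyte -3, while ule-2 stood at 0.906 and 0.729 CPM with overlapping oocytes. ule-1 had 14 counts in the 4 oocyte -1 libraries and 1 in those of oocyte -3.

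Of 9 spermatheca markers 4 passed the filter, with 1 higher in oocyte -1, 3 lower and a median of -0.03. Counting also those that did not pass, 4 of the 9 were higher and 5 lower. The summed level of that list was 151, 161, 144 and 205 CPM in the oocyte -1 libraries and 163, 176, 195 and 182 CPM in those of oocyte -3, most of it from the filamin gene fln-1 at 137 and 141 CPM. Among its less abundant members let-23 had 9 counts in oocyte -1 and 5 in oocyte -3, ipp-5 had 19 and 10, plc-1 had 6 and 0, and spv-1 had 1 and 16. With fln-1 so abundant the sum tells little of these low members. Of 8 gonadal sheath genes in the table only inx-8 and the transcription factor gene ceh-18 passed the filter, and the list sum was 154, 4.99, 48.3 and 7.75 CPM in the oocyte -1 libraries and 5.54, 19.8, 43.6 and 5.74 CPM in those of oocyte -3. The sheath innexin gene inx-8 made up most of it, with 151 CPM in oocyte -1 replicate 1, and its log2 ratio of 2.26 was -0.05 without that oocyte. The sheath transcription factor gene lim-7 had 18 counts in oocyte -1 and 49 in oocyte -3, a log2 ratio of -1.39 that was 0.99 without oocyte -3 replicate 3, and gon-1 had none at either position.

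Of 19 measured muscle markers 17 were higher in oocyte -1, and the median was 0.85, or -0.62 without oocyte -1 replicate 1. The summed level was 2371, 1239, 1389 and 1463 CPM in the oocyte -1 libraries and 1344, 1453, 1270 and 529 CPM in those of oocyte -3. Replicate 1 stood above the other oocyte -1 libraries, of which replicate 4 lay just above the highest oocyte -3 and the other 2 within the range of oocyte -3. The myosin light chain gene mlc-3 had 176, 7.98, 13.0008 and 6.90 CPM in the oocyte -1 libraries and 30.2, 6.96, 14.7 and 7.995 CPM in those of oocyte -3, and its log2 ratio was 2.12, or -0.81 without oocyte -1 replicate 1. The troponin C gene pat-10 and the tropomyosin gene lev-11 stood at 1.47 and 1.45, or -0.48 and 0.12 without it, and clik-1 at 1.87, or -0.34. Without oocyte -3 replicates 1 and 3 the ratios of mlc-3, clik-1 and pat-10 were 3.103, 2.75 and 2.41. Most of the list's sum was unc-54 at 829 CPM in oocyte -1 and 632 CPM in oocyte -3, the integrin gene pat-3 and pat-10, while myo-3 had 31 counts in oocyte -1 and 1 in oocyte -3. The same oocyte, replicate 1 of oocyte -1, was highest in the sheath list and lowest in 9 of the 12 lowest genes, and the part of other cells' RNA in those genes was not tested.

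Of 11 measured hypodermis and cuticle markers 9 were lower, and the median was -0.76, or -0.36 without oocyte -3 replicate 1. Their summed level was 131, 120, 123 and 152 CPM in the oocyte -1 libraries and 429, 117, 137 and 237 CPM in those of oocyte -3, and 7 of the 19 genes had no count in the 8 libraries, among them bli-1, rol-6, sqt-3 and dpy-7. Collagen genes as a whole had 25 of 27 measured members lower and a median of -1.06, or -0.30 without oocyte -3 replicate 1, and 84 of 164 had no count. The cuticle collagen gene col-119 had 14.7, 15.1, 13.0008 and 14.8 CPM in the oocyte -1 libraries and 60.9, 9.97, 27.9 and 28.6 CPM in those of oocyte -3, a log2 ratio of -1.17, or -0.56 without oocyte -3 replicates 1 and 3. Its oocyte -1 values were tight and lay within the spread of oocyte -3. Near-identical collagen genes leave these values uncertain.

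Yolk protein genes, whose transcription takes place in the intestine, had summed levels of 41.9, 110, 79.7 and 282 CPM in the oocyte -1 libraries and 119.3, 64.3, 116.2 and 129.8 CPM in those of oocyte -3. Their median log2 ratio was 0.35, or -0.58 without oocyte -1 replicate 4. The median of intestine markers was 0.11, or -0.45 without that oocyte, with 5 of 17 measured, and the gut transcription factor gene elt-2 and the esterase gene ges-1 had 2 counts each in oocyte -1 and none in oocyte -3. Of 84 sperm genes 11 passed the filter and 30 had no count, with a median of 0.19 that was -0.25 without oocyte -1 replicate 4. The sperm gene spe-48 stood at 251 CPM in oocyte -1 and 475 CPM in oocyte -3 with oocytes apart, a log2 ratio of -0.92. Neuron markers had a median of 0.45, or 0.03 without oocyte -3 replicates 1 and 3, with unc-25, unc-47 and eat-4 at no count, and most of their sum was snb-1. Of the 4 coelomocyte markers cup-2 alone passed the filter, at 38.4 CPM in oocyte -1 and 50.2 CPM in oocyte -3, and cup-4 had no count.

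**Figure D5:**
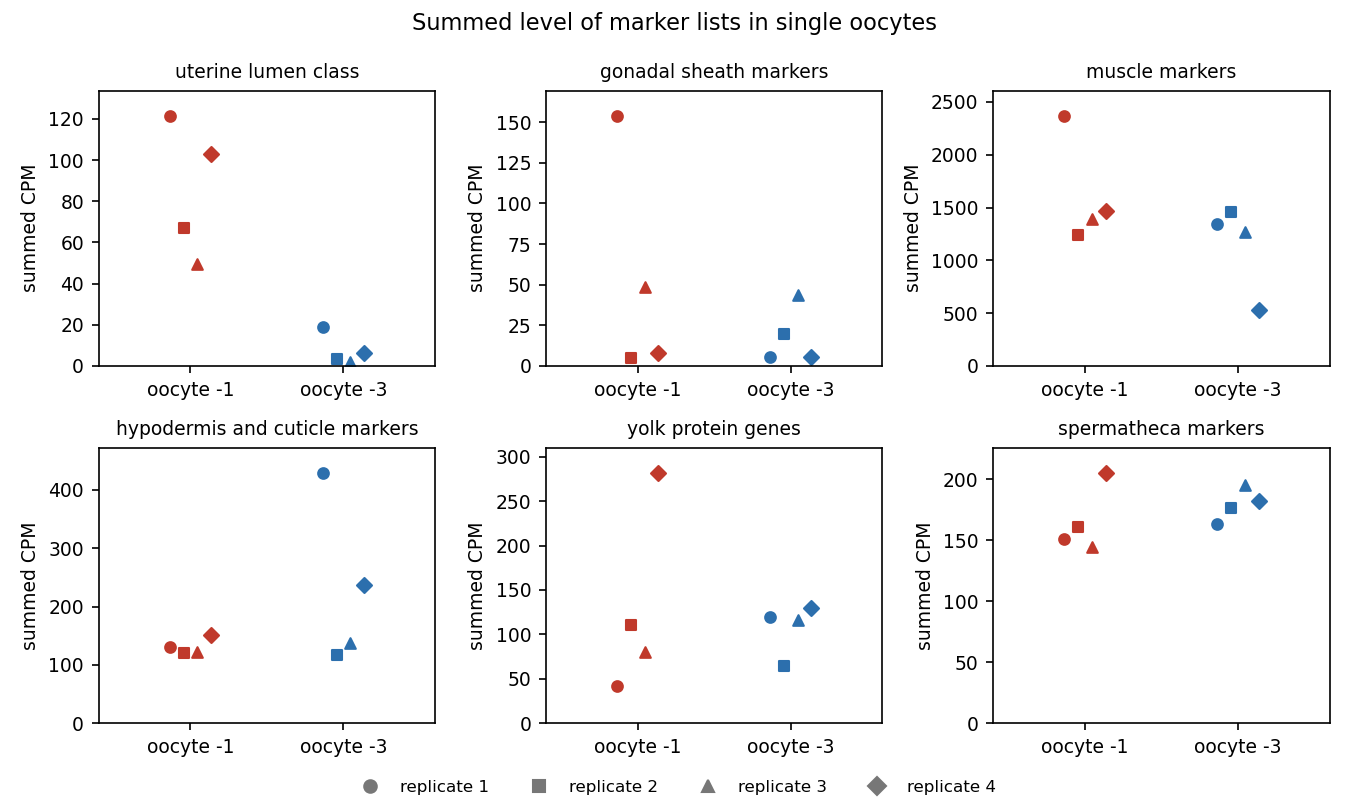
Summed CPM of 6 marker lists in each oocyte (vertical axes from 0, symbols for replicates), with oocyte -1 in red left of oocyte -3 in blue. The uterine lumen class lies wholly higher in oocyte -1 than in oocyte -3, at 49.5 to 121.6 against 2.17 to 18.9 CPM. In the other lists the groups overlap and single oocytes set the extremes. Oocyte -5, not drawn, ranged from 2.97 to 73.6 CPM in the uterine lumen class.

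Few genes were present at one position and without a count at the other. With at least 3 CPM in oocyte -3, 15 genes had no count in the 4 oocyte -1 libraries, and F53G12.4 alone had at least 3 CPM in oocyte -1 and no count in oocyte -3. None of the 16 passed the low-count filter. For 11 of the 15, oocyte -3 replicate 1 was the highest oocyte, for 3 it was replicate 3, and in 8 a single oocyte held over 90% of the counts. bath-31 and B0511.11 were the only 2 of the 15 with counts in all 4 oocyte -3 libraries. They were at least 71.2-fold and 73.7-fold lower in oocyte -1 if a position with no count holds 3 counts over its 4 oocytes. Replicate 1 held 59.5% and 64.3% of their oocyte -3 counts. bath-31 had only 0.0619 CPM in replicate 3, and B0511.11 only 0.0512 CPM in replicate 4.

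Of the 7107 genes that the authors' deposited table for these positions shares with those past the filter, 94.8% had the same sign. In the authors' deposited table the 11 of the 12 highest genes it lists had log2 fold changes from 1.13 to 4.04, and the 12 lowest from -2.33 to -1.26. That table was made from the same libraries, so it is another processing of the same counts.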

How the data were processed

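Single oocytes at positions -1 and -3 of the adult gonad were compared, with 4 libraries each. Per the labels' protocols, fresh oocytes were lysed and frozen and amplified with a SMART-seq v4 3' DE kit, which reads 3' ends of polyadenylated RNA after PCR and counts no molecules. Per the submitters' processing notes, cutadapt 1.18, FastQC 0.11.5, STAR, featureCounts 1.5.3 and DESeq2 1.32.0 were used. The file headers name featureCounts 1.6.4 with the WormBase WS271 annotation and no option for strand, so overlapping genes are uncertain. As for the genome build, it was not given in the sources used here. Gene coordinates were taken from the deposited count table. Gene names came from a table of gene IDs and symbols, which matched 44018 IDs, and mitochondrial genes without a symbol took the name of the RefSeq gene (WBcel235) with the same start or end. The deposited table holds raw counts per gene, not normalized, per the file headers. The authors' deposited comparison table holds log2 fold changes, of which the sign and the values of named genes were read.

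Genes were kept with filterByExpr of edgeR 4.0.16 and libraries scaled by its TMM factors (R 4.3.3), and other steps ran in Python 3.11.15 with numpy 2.4.6, pandas 2.3.3, scipy 1.17.1 and matplotlib 3.10.9. Levels are summed counts over summed scaled library sizes, with exact Poisson intervals. A position with fewer than 3 counts over its 4 oocytes was set to that floor in ratios, and 3 counts in 1 library stood for 0.145 to 0.336 CPM. No test was made, because the labels name no animals and each position is 1 sample. The steps were tested on simulated counts. Genes named are the 12 highest and 12 lowest log2 ratios and the 6 largest gains and losses in CPM among genes of at least 20 CPM mean whose oocytes did not overlap, up to 4 members of each of 48 lists with the widest ratios, and markers of cell types. Others are named because they are well known members of a list, or are said to have been chosen after their values were seen. The members and lists were chosen with earlier results of these data known. Alternatives were DESeq2 1.42.0 size factors, raw library totals, no filter, a filter of 10 CPM, equal weights of oocytes (pseudocount 1), thinned libraries, leaving out each oocyte, and leaving out oocyte -3 replicates 1 and 3.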

Additional observations from a re-analysis of the deposited data

Results flagged for a closer look

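Among 162 groups of 4 oocytes, 10 held 1 oocyte far from the other 3, where chance flags about 1 in 20 such groups. F57C2.4 at 5.22 CPM, ule-5 at 9.02 CPM and ZK813.3 at 19.3 CPM were far above the other oocyte -3 libraries in replicate 1, the others lying at 0 to 0.564, 0.256 to 0.681 and 0.0838 to 0.41 CPM. In oocyte -1 replicate 1, spn-4 at 4361 CPM and swsn-4 at 775.6 CPM were above the other 3 oocytes, at 3424 to 3493 and 688.8 to 698.2 CPM, and pir-1 at 194.8 CPM was below them, at 479.9 to 523.3 CPM. The summed level of neuron markers was low in oocyte -3 replicate 3, at 204.7 CPM beside 303.3 to 314.7 CPM. That of tRNA synthetase genes was high in oocyte -3 replicate 2, at 3953 CPM beside 3044 to 3134 CPM. Nuclear-encoded respiratory chain genes summed to 17580 CPM in oocyte -1 replicate 2, beside 14380 to 14830 CPM, and to 21800 CPM in oocyte -3 replicate 1, beside 14420 to 15380 CPM.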

How the results depend on the processing

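No paired analysis was possible because the results come from no test and the labels tie no oocyte of one position to one of the other. With no filter, 2219 genes were past 2-fold higher and 1838 lower, and with 10 CPM 78 and 215. Equal weights gave 281 lower. Apart and past 2-fold were 169 higher with no filter, 34 higher and 78 lower with 10 CPM, and 79 lower with raw totals. Without both oocyte -3 libraries that stand apart, 722 genes lay above and 706 below, 232 and 207 of them past 2-fold. Leaving out 1 oocyte, 480 to 673 genes were past 2-fold higher and 477 to 832 lower, 366 to 594 lay above and 332 to 567 below, and 128 to 210 and 114 to 267 were also past 2-fold. The counts given with raw totals keep the shift of the median of all genes to 0.21. Only list medians and ratios of single genes with raw totals were taken relative to that shift.

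Without both oocyte -3 libraries that stand apart, list medians moved to -0.11 for Notch genes, 1.95 for muscle, -0.0735 for sperm, 0.0722 for mitochondrial ribosomal proteins, 0.10 for the proteasome, 0.18 for the respiratory chain, -0.35 for histones, 0.11 for splicing, 0.16 for RNA polymerase, -0.28 for collagens and 0.0806 for tubulins. The shortest group of genes moved to 0.0154. The sign changed in this setting for sperm, mitochondrial ribosomal proteins, the respiratory chain, splicing, tubulins and the shortest group. With no filter medians were 2.28 for the uterine class, 0.47 for sperm, -0.36 for collagens, 0.0231 for lectins and 0.0433 for tubulins, the lectins and tubulins with a change of sign. With 10 CPM the uterine class stood at 4.21 and sperm at -0.27. Equal weights put the proteasome at 0.0930, and thinning put sperm at -0.0564 and 3 genes at no count in oocyte -3. The cause was not tested.

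Leaving out 1 oocyte, medians ranged from -0.14 to 0.0372 for lipid synthesis, 2.63 to 3.88 for the uterine class, -0.58 to 0.79 for yolk proteins, -0.45 to 0.38 for intestine, -0.62 to 1.57 for muscle, -0.25 to 0.32 for sperm, -0.29 to -0.0529 for mitochondrial ribosomal proteins, 0.0532 to 0.22 for translation factors, -0.00160 to 0.13 for the proteasome, -0.0847 to 0.0884 for RNA polymerase and -1.22 to -0.30 for collagens. Leaving out 1 oocyte, inx-8 ranged from -0.0463 to 3.11, mlc-3 from -0.81 to 2.70, clik-1 from -0.34 to 2.32 and pat-10 from -0.48 to 1.95, each negative without oocyte -1 replicate 1. Of 2925 values of 195 named and listed genes, 2892 moved by less than the spread between oocytes and 29 others by more, among which vit-6 and tba-2 changed sign. Depth limits genes of few counts most.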

Other observations

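Wider ratios than those of the 12 highest and 12 lowest genes were found under 20 CPM, in genes named after their values were seen. Among the 2888 genes under 20 CPM that passed the filter, 91 lay wholly above in oocyte -1 and 80 wholly below. Of all 8070 genes 277 (3.43%) lay above and 257 (3.18%) below, so genes under 20 CPM did not lie apart more often. Y37D8A.19 had 14.5, 25.7, 17.5 and 14.8 CPM in the oocyte -1 libraries and 0.0644, 0, 0.0619 and 0.461 CPM in those of oocyte -3, a log2 ratio of 6.61, or 7.95 without oocyte -3 replicate 4. Its level in oocyte -5 was 0.678 CPM. The 4 oocytes of position -1 were alike, and no oocyte -3 came near them. The next were crn-6, a gene of a cell-death nuclease family, H29C22.1, F32D1.11, E02H9.7 and elo-5, a fatty acid elongase gene. They stood at 4.55, 4.05, 3.53, 3.49 and 2.36 CPM in oocyte -1 and had at most 3 counts over the 4 oocyte -3 libraries. Their oocyte -5 levels were 1.997, 1.149, 1.526, 0.0565 and 1.602 CPM, in the same order.

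On the lower side, nhr-90, a nuclear hormone receptor gene, had 0.0485, 0.544, 0 and 0.0497 CPM in the oocyte -1 libraries and 8.31, 5.36, 6.93 and 3.54 CPM in those of oocyte -3, a log2 ratio of -5.49, or -6.62 without oocyte -1 replicate 2. All 4 oocyte -3 libraries held it, and its oocyte -5 level was 1.88 CPM. cest-35.1 stood at 0.165 CPM in oocyte -1 and 6.59 CPM in oocyte -3, with a log2 ratio of -5.32, or -6.06 without oocyte -1 replicate 4. lon-1, known for its role in body length, had 0, 0.635, 0 and 0.0497 CPM in the oocyte -1 libraries and 3.09, 3.44, 1.55 and 1.08 CPM in those of oocyte -3, a log2 ratio of -4.02, or -5.15 without oocyte -1 replicate 2. F19B10.5 had 1 oocyte -1 library with a count, at 0.112 CPM, and 10.3, 1.17, 2.85 and 1.95 CPM in the oocyte -3 libraries.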
